A study of Salmo salar with 26 samples.

Results

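Rab GTPases and the protein coats of transport vesicles were described in lens RNA of Atlantic salmon (Salmo salar). The members were the 117 of 26681 unigenes, contigs of transcripts put together from the reads alone, whose best protein hit named a Rab protein ("ras-related protein Rab"), clathrin, a subunit of the AP-1, AP-2 or AP-3 complex, or a coatomer subunit. They comprised 42 Rab GTPase contigs, 10 clathrin chain contigs, 39 AP complex contigs, 19 coatomer contigs and 7 contigs of other proteins with clathrin in their name. Of these, 92 carried enough reads to be tested, at least 10 at the median depth in 6 libraries or more (32, 8, 29, 19 and 4 by class). The other 25 fell below the read minimum and averaged at most 2.64 RPKM, the unit of reads scaled to contig length and library depth.

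The study compared lenses of diploid (2N) and triploid (3N) salmon that had (+) or lacked (-) cataract, an opacity of the lens. One lens library was made per fish from homogenised lens tissue by poly(A) selection, with 6 diploids free of cataract (2N-), 6 diploids with cataract (2N+), 6 triploids free of cataract (3N-) and 8 triploids with cataract (3N+). The fish received no treatment beyond sorting by ploidy, and the sources used here do not give their age, rearing or cataract grade. The fish of the 2N- group weighed 110 to 345 g and those of the 2N+ group 460 to 840 g, so that body weight and cataract cannot be told apart in the diploids. The triploid groups overlapped in weight, at 280 to 700 g in 3N- and 270 to 885 g in 3N+.

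Rab GTPases are molecular switches that sit on membranes when bound to GTP, and each Rab recruits effectors that move, tether or fuse a particular set of vesicles. Clathrin, built of heavy and light chains, coats vesicles that bud from the plasma membrane, the trans-Golgi network and endosomes, and the AP complexes link it to cargo (AP-2 at the plasma membrane, AP-1 and AP-3 at internal membranes). Coatomer forms the COPI coat, which returns material from the Golgi to the endoplasmic reticulum. The lens consists of an epithelial layer over a mass of fibre cells, and fibre cells lose their organelles as they mature.

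The libraries held 9.76 M to 11.95 M reads, and lens fibre genes such as the crystallins took 38.5% to 48.1% of them, with means of 44.98%, 41.5%, 43.9% and 42.5% in 2N-, 2N+, 3N- and 3N+. Connexin 43, a gap junction protein of the lens epithelium, ranged from 0.42 to 109 RPKM. It was at 20 RPKM or more in 14 of 26 libraries, with some in every group. Its medians were 60.8, 50.9, 24.3 and 6.16 RPKM in 2N-, 2N+, 3N- and 3N+, lower in the triploid groups. Summed retina markers (26 unigenes) ran from 92.7 to 241 RPKM in 2N- and reached 3571 in 2N+, 2213 in 3N- and 556 in 3N+. Summed markers of erythrocytes (4 unigenes) reached 95.7, 1374, 2028 and 691 RPKM in 2N-, 2N+, 3N- and 3N+. Summed keratins (10 unigenes) reached 155, 419, 154 and 889 RPKM in the same order. Of the 3 leukocyte markers found, none passed the read minimum. In whole lens tissue, fewer cells of a type and less RNA per cell cannot be told apart.

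Levels per length differed widely among the members. The highest was Rab-39B-like (CL93.Contig2), which resembles a Rab of the endolysosomal and autophagy pathways, with a mean of 198 RPKM over the 26 libraries and 48.7% of the RPKM summed over all Rab contigs. Next came clathrin light chain A (Unigene7243) at 29.6 RPKM, AP-2 subunit sigma-like (CL1585.Contig1) at 24.0 RPKM and AP-2 subunit mu-1 (CL1689.Contig1), the cargo-binding subunit, at 21.2 RPKM. The leading coatomer contig was subunit epsilon (CL2503.Contig1) at 14.4 RPKM. Among the Rabs, Rab-2A (CL2482.Contig1, a Golgi Rab), Rab-1A (Unigene7857, endoplasmic reticulum to Golgi) and Rab-13 (Unigene7767, cell junctions) had means of 16.9, 16.6 and 15.6 RPKM. Only 15 of the 117 contigs averaged 10 RPKM or more. The phosphatidylinositol-binding clathrin assembly protein (PICALM), which brings clathrin and AP-2 together at the membrane, averaged 4.37 RPKM in its highest contig (Unigene8517), and clathrin interactor 1-like reached 1.69 RPKM (Unigene12431).

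**Figure D1:**
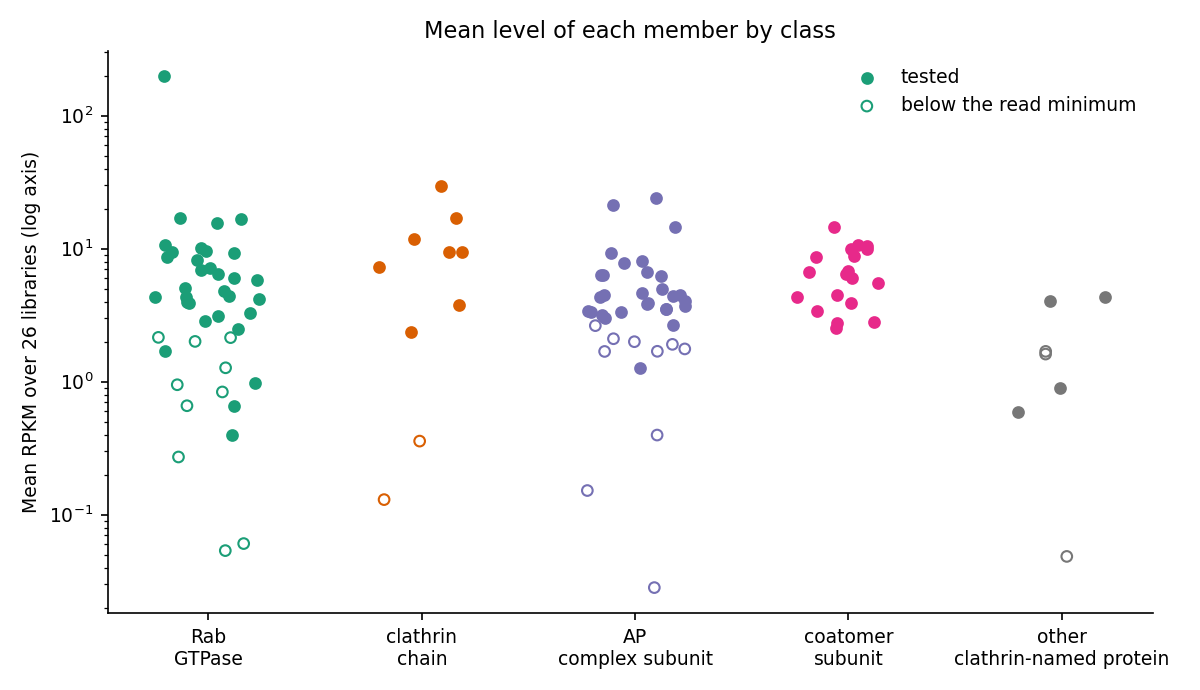
Mean RPKM over 26 libraries (log axis) of each of the 117 members, by class, with filled points for the 92 tested contigs and open points for the 25 below the read minimum. Rab-39B-like stands alone at 198 RPKM, and 15 members reach 10 RPKM.

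The question of the first comparison was which members differed between diploid lenses with and without cataract. Rab-32-like and 2 contigs of clathrin heavy chain rose, and Rab-9A fell (limma on log2 scaled RPKM plus 0.5, Benjamini-Hochberg adjusted p below 0.05 over 19532 unigenes). These 4 were 4.35% of the 92 tested members, against 1.39% of all tested unigenes. An unadjusted p below 0.05 was found for 16 members (17.4%), against 12.5% of unigenes. By direction, 3 members rose against a background of 0.282% higher, and 1 fell against 1.11% lower. The members were chosen with earlier results of these data known, so these shares are not an independent test. The 2 heavy chain contigs may be pieces of 1 transcript, so these counts may hold the same transcript more than once. Over the 92 members the median log2 change was 0.12, beside 0.020 over all unigenes, and 67 members had a positive and 25 a negative value. Lens fibre markers went the other way in the same lenses. Of 73 tested, 7 fell and none rose in diploids (median -0.48), none was called in triploids (median -0.077), and 11 fell and none rose in the average. Their part in the members' values was not tested.

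Rab-32-like (Unigene10053, 695 bases) is related to Rab-32, which in mammals serves lysosome-related organelles such as melanosomes and also associates with mitochondria. In 2N- its lowest, median and highest levels were 0.66, 1.25 and 1.95 RPKM. In 2N+ they were 3.04, 7.25 and 12.4 RPKM. In 3N- they were 1.18, 2.16 and 2.91 RPKM, and in 3N+ 2.78, 5.49 and 11.5 RPKM. Every 2N+ lens lay above every 2N- lens, and 7 of 8 lenses of 3N+ lay above every 3N- lens, on RPKM as deposited and on scaled values alike. The log2 change was 1.88 ± 0.31 (SE) in diploids, a fold of 3.68 on the log2(RPKM + 0.5) scale (adjusted p = 0.00305).

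In triploids Rab-32-like had a log2 difference of 1.21 ± 0.29 (SE), a fold of 2.31, which did not pass after adjustment (limma, Benjamini-Hochberg adjusted p = 0.109). Averaged over both ploidies the log2 change was 1.54 ± 0.21 (adjusted p = 0.000179). The difference between the ploidies in this change was -0.67 ± 0.43 (adjusted p = 0.869), so the effects in diploids and triploids were not distinguished. Rab-32-like was called in diploids and in the average under all 38 alternatives, with log2 changes of 1.62 to 2.29 and 1.35 to 1.81. In triploids it was called under 4 of 38, namely RPKM as deposited, a covariate for the first principal component, one for connexin 43, and without 3N+ replicate 5.

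Levels of other cell markers are given beside Rab-32-like because they varied in the same lenses. The 2 libraries with the most retina RNA, 2N+ replicate 2 (3571 RPKM) and 3N- replicate 1 (2213 RPKM), had 7.26 and 2.15 RPKM of Rab-32-like, beside medians of 7.25 and 2.16 RPKM in their groups. The library with the most erythrocyte marker RNA, 3N- replicate 5 (2028 RPKM), had 1.71 RPKM. The next in erythrocyte markers, 2N+ replicate 1 (1374 RPKM), 3N+ replicate 1 (691 RPKM) and 2N+ replicate 4 (646 RPKM), had 10.2, 11.5 and 3.04 RPKM of Rab-32-like. Rab-32-like was highest in 2N+ replicate 5 (12.4 RPKM), 3N+ replicate 1 (11.5 RPKM) and 2N+ replicate 1 (10.2 RPKM). The first and second of these were among the 3 libraries with more than 400 RPKM of keratins. The other keratin-rich library, 3N+ replicate 6, had the most keratin RNA (889 RPKM). It had 4.55 RPKM of Rab-32-like, below the median of its group. Retina-rich libraries were those above 1000 RPKM of retina markers, namely 2N+ replicate 2, 2N+ replicate 3 (1038 RPKM) and 3N- replicate 1. Erythrocyte-rich libraries were those above 600 RPKM of erythrocyte markers, each named above. Without the 3 keratin-rich libraries the diploid change of Rab-32-like was 1.72 (limma adjusted p = 0.0107). It was 2.04 without the retina-rich libraries (adjusted p = 0.0192) and 1.88 without the erythrocyte-rich ones (adjusted p = 0.000939). With log2 body weight as a covariate it was 1.98 (adjusted p = 0.0385). The diploid groups did not overlap in weight, so that fit cannot separate weight from cataract in diploids.

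Tyrosinase-related protein 1, a melanosome protein and 1 of the 2 pigment cell markers found, averaged 2.71 RPKM. It ran from 0.17 to 5.11 RPKM in 2N-, 2.24 to 11.3 in 2N+, 0.34 to 9.07 in 3N- and 0.98 to 3.52 in 3N+, with overlapping groups in both ploidies. Its log2 differences were 1.23 ± 0.45 (SE, limma adjusted p = 0.211) in diploids and -0.20 ± 0.42 (adjusted p = 0.960) in triploids. Over the 2 pigment cell markers the median log2 difference was 0.76 in diploids and -0.096 in triploids, and neither marker was called. The part of these markers in the Rab-32-like values was not tested.

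**Figure D2:**
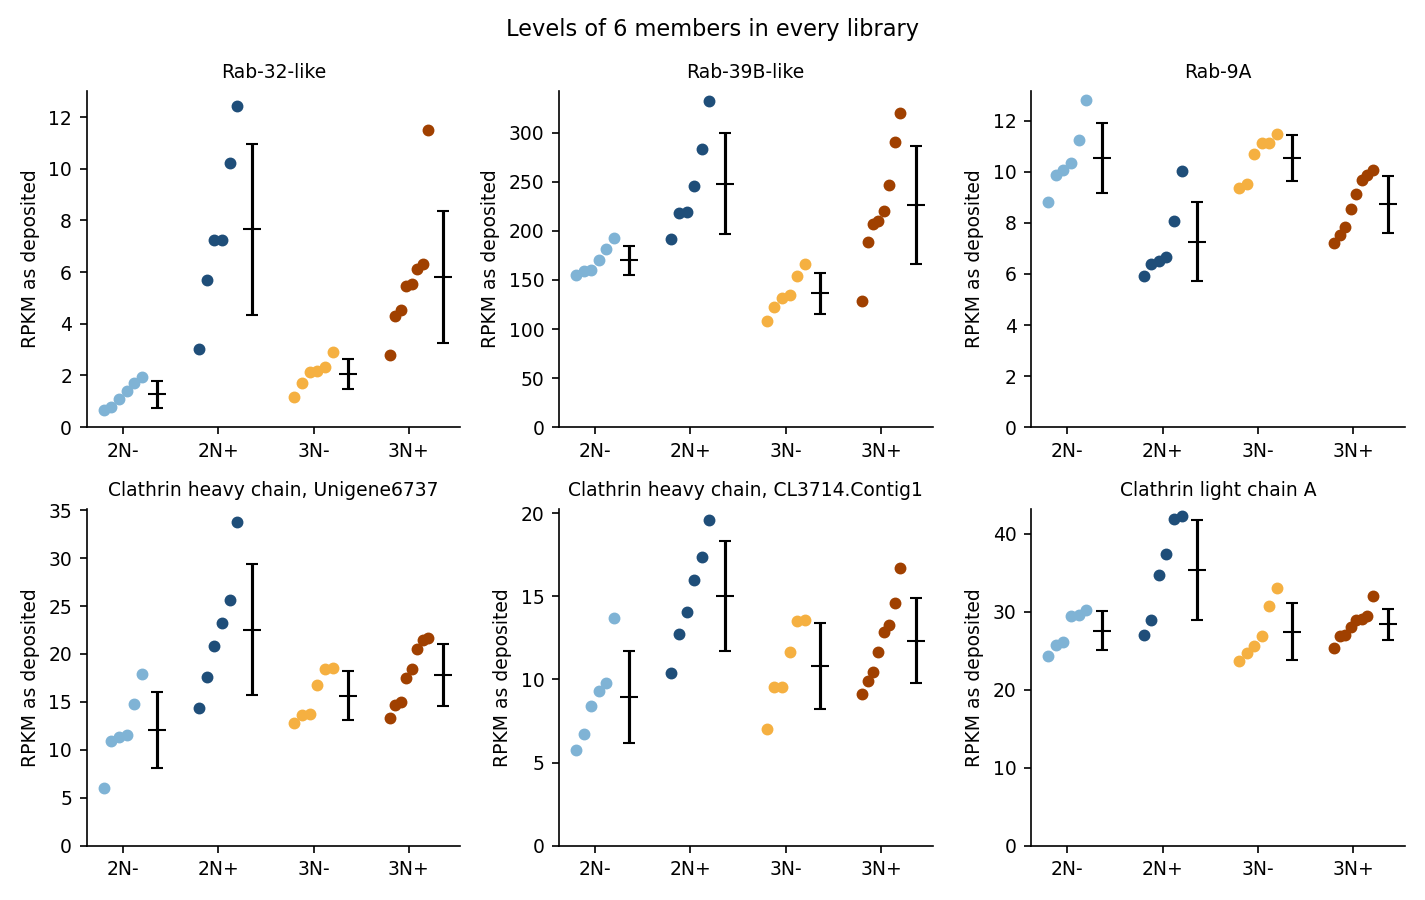
RPKM as deposited of 6 members in each library of the groups 2N-, 2N+, 3N- and 3N+ (points), with the group mean and SD beside them (n = 6, 6, 6 and 8). Rab-32-like lies at 0.66 to 1.95 RPKM in 2N- and 3.04 to 12.4 RPKM in 2N+ without overlap, while clathrin light chain A overlaps between all groups.

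Rab-9A (Unigene7462, 2721 bases), a Rab of late endosomes that returns mannose phosphate receptors to the trans-Golgi network, fell in diploid lenses with cataract. Its lowest, median and highest levels were 8.80, 10.2 and 12.8 RPKM in 2N- and 5.92, 6.58 and 10.04 RPKM in 2N+. Of the 6 lenses of 2N+, 5 lay below every 2N- lens. In triploids the levels were 9.36, 10.9 and 11.5 RPKM in 3N- and 7.20, 8.84 and 10.1 RPKM in 3N+. The groups overlapped in both ploidies. On scaled values 5 of 6 lenses of 2N+ lay below every 2N- lens, and 4 of 8 lenses of 3N+ below every 3N- lens. The log2 change was -0.79 ± 0.17 (SE) in diploids (limma adjusted p = 0.0143) and -0.55 ± 0.11 in the average of both ploidies (adjusted p = 0.00716), whereas the triploid difference was -0.31 ± 0.16 (adjusted p = 0.584). The change differed between the ploidies by 0.48 ± 0.23 (adjusted p = 0.800), which did not pass. The averaged call held under all 38 alternatives, and the diploid call under 32. It was lost without the retina-rich libraries (-0.61, adjusted p = 0.160), with body weight (-0.90, adjusted p = 0.0878), without the keratin-rich libraries (-0.74, adjusted p = 0.0519), and without 2N- replicate 2, 2N- replicate 4 or 2N+ replicate 3.

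Rab-39B-like (CL93.Contig2, 3347 bases) ran from 155 to 193 RPKM in 2N-, 192 to 332 in 2N+, 109 to 167 in 3N- and 128 to 320 in 3N+. On RPKM as deposited 5 of 6 lenses of 2N+ and 7 of 8 of 3N+ lay above every lens of their ploidy without cataract, and on scaled values 2 and 6 did. The log2 differences were 0.23 in diploids, 0.65 ± 0.20 (SE) in triploids (limma adjusted p = 0.242) and 0.44 ± 0.14 in the average (adjusted p = 0.105), none of which passed. Without scaling all 3 were called, at 0.53 in diploids (adjusted p = 0.0446), 0.70 in triploids (adjusted p = 0.0410) and 0.61 in the average (adjusted p = 0.00111). With connexin 43 as a covariate the averaged value was 0.43 (adjusted p = 0.0176) and the triploid value 0.65 (adjusted p = 0.0414). With the first principal component they were 0.46 (adjusted p = 0.00742) and 0.64 (adjusted p = 0.0298). Without 3N+ replicate 5 it was called in triploids (adjusted p = 0.0473) and in the average (adjusted p = 0.0228). Its highest libraries, 2N+ replicate 5 (332 RPKM), 3N+ replicate 1 (320 RPKM) and 3N+ replicate 6 (291 RPKM), were the 3 keratin-rich ones.

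No Rab contig other than Rab-32-like and Rab-9A was called on scaled values with all 26 libraries and no covariate. Of the 32 Rab contigs tested, 17 had a positive and 15 a negative diploid value, with a median of 0.022, beside 0.020 over all unigenes. An unadjusted p below 0.05 by limma was found for 6 Rab contigs (18.75%) in diploids, beside 12.5% of unigenes. In triploids it was found for 2 (6.25%, beside 8.92%) and in the average for 9 (28.1%, beside 14.5%). Rab-24 (CL2276.Contig1), a Rab linked to autophagy, had means of 3.39 ± 0.68 RPKM (SD, n = 6) in 2N- and 2.42 ± 0.55 (n = 6) in 2N+, and its log2 difference of -0.66 ± 0.21 (SE) did not pass (adjusted p = 0.114). The same contig stood at 3.60 ± 0.83 RPKM (n = 6) in 3N- and 3.06 ± 0.59 (n = 8) in 3N+. Another contig named Rab-24 (Unigene14617) ran from 1.75 to 4.91 RPKM in 2N- and 1.34 to 5.15 RPKM in 2N+, and was not called. Further Rab-24 values are for CL2276.Contig1. Rab-6A-like (CL3664.Contig1), a Golgi Rab, had a difference of 0.50 ± 0.19 (adjusted p = 0.226), and Rab-13 one of -0.30 ± 0.12 (adjusted p = 0.288). With connexin 43 as a covariate Rab-24 was called in diploids (-0.68, limma adjusted p = 0.0316) and the average (-0.46, adjusted p = 0.0287). Rab-6A-like was called there too (0.52, limma adjusted p = 0.0279, and 0.38, adjusted p = 0.0153). With the first principal component both were called in the average alone (adjusted p = 0.0383 for Rab-24 and 0.0269 for Rab-6A-like). Rab-24 was called in the average without 2N- replicate 3 (limma adjusted p = 0.0451) or 3N- replicate 6 (adjusted p = 0.0430). Among abundant Rabs of the secretory pathway, the diploid log2 difference of Rab-1A (Unigene7857) was 0.023 ± 0.112 (SE), and that of Rab-10 (CL1428.Contig1), a Rab of recycling and exocytosis, was -0.088 ± 0.114. Neither passed the test.

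Clathrin heavy chain, the leg of the clathrin triskelion, was spread over 7 tested contigs, all with a best hit named clathrin heavy chain 1-like. They may be pieces of 1 transcript or of near-identical gene copies, so they are not independent members. Unigene6737 (567 bases) had lowest, median and highest levels of 5.99, 11.4 and 17.9 RPKM in 2N- and 14.3, 22.02 and 33.7 RPKM in 2N+. CL3714.Contig1 (3838 bases), the longest, had 5.74, 8.83 and 13.7 RPKM in 2N- and 10.4, 15.01 and 19.6 RPKM in 2N+. In both contigs the highest 2N- lenses overlapped the lowest 2N+ lenses. In triploids Unigene6737 ran from 12.8 to 18.6 RPKM in 3N- and 13.3 to 21.7 RPKM in 3N+, and CL3714.Contig1 from 7.02 to 13.6 and 9.10 to 16.7 RPKM. On scaled values 4 of 6 lenses of 2N+ in Unigene6737 and 3 of 6 in CL3714.Contig1 lay above every 2N- lens. In each contig 5 of 8 lenses of 3N+ lay above every 3N- lens, and in Unigene6737 1 lay below every 3N- lens.

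The diploid log2 change of clathrin heavy chain was 0.61 ± 0.13 (SE) for Unigene6737 (limma, Benjamini-Hochberg adjusted p = 0.0196) and 0.46 ± 0.12 for CL3714.Contig1 (adjusted p = 0.0425). In the average of both ploidies the changes were 0.37 ± 0.09 (adjusted p = 0.0242) and 0.30 ± 0.08 (adjusted p = 0.0355). The triploid differences of 0.13 ± 0.12 (adjusted p = 0.866) and 0.15 ± 0.11 (adjusted p = 0.782) did not pass. The change of Unigene6737 differed between ploidies by -0.48 ± 0.18 (adjusted p = 0.709), also without passing. Among lenses without cataract, 3N- minus 2N- was 0.39 ± 0.13 in Unigene6737 (limma adjusted p = 0.267) and 0.25 ± 0.12 in CL3714.Contig1 (adjusted p = 0.455). Over the 7 heavy chain contigs, 6 were positive and 1 negative in 3N- minus 2N-, with a median of 0.32 and none called. An unadjusted p below 0.05 by limma was found there for 4 of 7 (57.1%), beside 10% of unigenes. In the diploid cataract comparison it was also 4 of 7, beside 12.5% of unigenes.

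The other 5 heavy chain contigs had diploid differences of 0.19 to 0.52 that did not pass, so that all 7 were positive. On values without scaling CL1046.Contig1 was called in diploids as well (0.67, limma adjusted p = 0.0215), where 6.73% of all unigenes were called. Without the retina-rich libraries Unigene6738 turned to -0.082 and the other 6 stayed positive. In triploids 4 of the 7 were positive and 3 negative. The diploid call of CL3714.Contig1 held under 22 of 38 alternatives and that of Unigene6737 under 33. Both lost the call with body weight as a covariate, Unigene6737 at 0.51 (limma adjusted p = 0.297) and CL3714.Contig1 at 0.33 (adjusted p = 0.504). Without the retina-rich libraries both lost it too, Unigene6737 at 0.51 (adjusted p = 0.152) and CL3714.Contig1 at 0.41 (adjusted p = 0.216). The 2N+ lenses left out there, replicates 2 and 3, had the highest 2N+ levels of both contigs (25.6 and 33.7 RPKM in Unigene6737). CL3714.Contig1 also lost the diploid call without the keratin-rich libraries (limma adjusted p = 0.0606) and with no read filter (adjusted p = 0.0549). The same held with the replicate number as a block (adjusted p = 0.0794). In the average both contigs lost the call with the block (adjusted p = 0.107 for CL3714.Contig1 and 0.0709 for Unigene6737), with body weight (0.337 and 0.228), without the retina-rich libraries (0.0998 for each) and without the keratin-rich ones (0.0523 and 0.0707). CL3714.Contig1 lost it there without the erythrocyte-rich libraries as well (adjusted p = 0.0650). Its averaged call held under 25 of 38 alternatives and in 18 of 26 fits without 1 library, being lost without 2N- replicate 2, 4 or 6, 2N+ replicate 2 or 3, 3N- replicate 5, or 3N+ replicate 3 or 8. That of Unigene6737 held under 34 and in all 26. The diploid call of CL3714.Contig1 held in 15 of 26 fits that each left out 1 library, and that of Unigene6737 in 23 of 26.

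**Figure D3:**
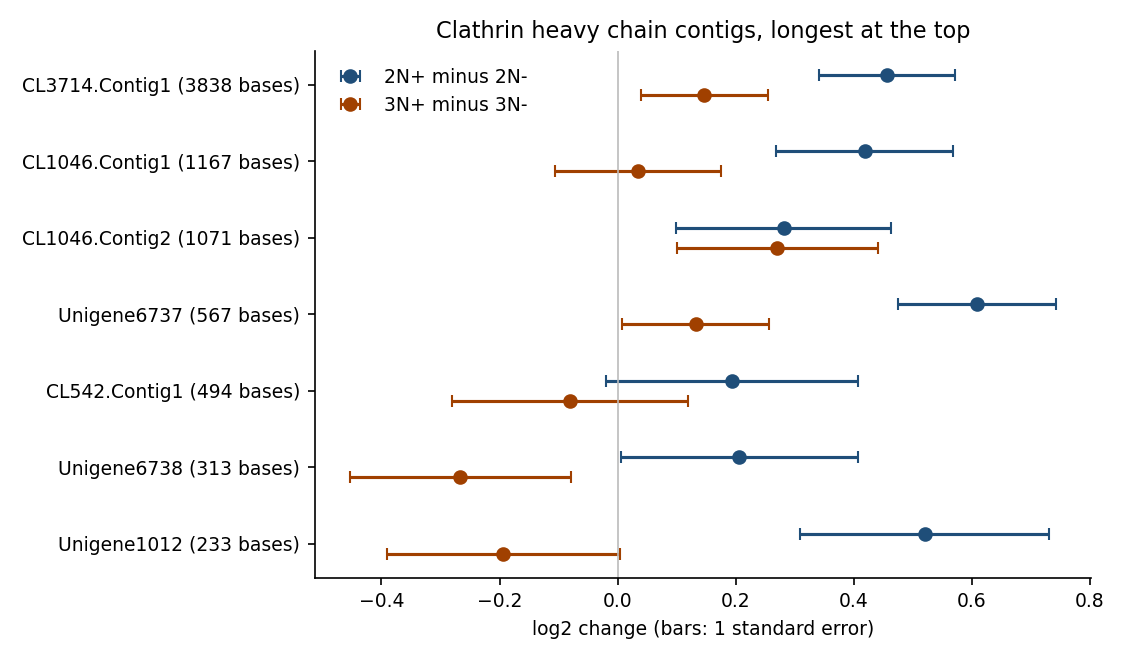
Log2 change with cataract of the 7 clathrin heavy chain contigs in diploids (blue) and triploids (brown), ordered by contig length, with bars of 1 standard error. All diploid values are positive, from 0.19 to 0.61, while triploid values lie between -0.27 and 0.27.

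Clathrin light chain A, the regulatory chain bound to the heavy chain, had a single tested contig. It had 24.3 to 30.3 RPKM in 2N-, 27.1 to 42.3 in 2N+, 23.7 to 33.1 in 3N- and 25.4 to 32.1 in 3N+, and its log2 difference in diploids was 0.047 on scaled values, which did not pass. Clathrin light chain B was found in 2 contigs at 0.36 and 0.13 RPKM, both under the read minimum.

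Adaptor complexes gave no call with cataract on scaled values with all 26 libraries. Of 29 tested AP contigs, 23 had a positive diploid value and the median was 0.20, and in triploids 12 were positive and 17 negative with a median of -0.04. Without scaling, all 29 were positive in diploids and 2 were called, Unigene20241 (1.32, limma adjusted p = 0.0165) and AP-3 beta-1 (CL1833.Contig1, 0.57, adjusted p = 0.0349), while 6.73% of all unigenes were called and their median rose to 0.28. The smallest p in diploids belonged to AP-3 subunit delta-1-like (Unigene20241, 248 bases, a median of 9.5 reads per library), with 0.37 to 4.26 RPKM in 2N- and 3.04 to 6.67 RPKM in 2N+, and a log2 difference of 1.06 ± 0.32 (SE, limma adjusted p = 0.0985). Without 2N- replicate 3, its highest 2N- lens, it was called at 1.26 (adjusted p = 0.0411). AP-3 delta-1 was spread over further contigs. Of these, Unigene6027 went opposite ways, with 0.53 in diploids and -0.56 in triploids. Its difference between ploidies of -1.09 ± 0.32 did not pass (limma adjusted p = 0.678). Contigs with more reads, CL3346.Contig2 and CL2637.Contig1, were not called. They had 3 and 1 of 6 lenses of 2N+ above every 2N- lens on scaled values. In both, no 3N+ lens lay above every 3N- lens. AP-3 delta-1 belongs to the adaptor that sorts cargo to lysosomes and related organelles. The abundant AP-2 sigma-like and mu-1 contigs had diploid differences of -0.089 and 0.092.

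Coatomer subunits showed small values and no call with cataract. In diploids 16 of 19 contigs were positive with a median of 0.13, and none reached an unadjusted p below 0.05. Some contigs share a best hit, such as Unigene6808, Unigene6809, Unigene6312 and Unigene6810 for coatomer beta. They may be pieces of 1 transcript or of near-identical copies, so the 19 are not all independent members. In triploids 11 of 19 were positive with a median of 0.01. The widest single value was coatomer subunit delta (Unigene2579), at 0.95 in triploids (adjusted p = 0.420), from 0 to 4.51 RPKM in 3N- and 2.53 to 7.60 RPKM in 3N+. Coatomer subunit epsilon had diploid levels of 13.6 ± 3.31 RPKM (SD, n = 6) in 2N- and 17.7 ± 3.77 (n = 6) in 2N+ as deposited, and a log2 difference of 0.095 on scaled values. The PICALM contigs gave no call either, with diploid values of -0.31 to 0.29.

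**Figure D4:**
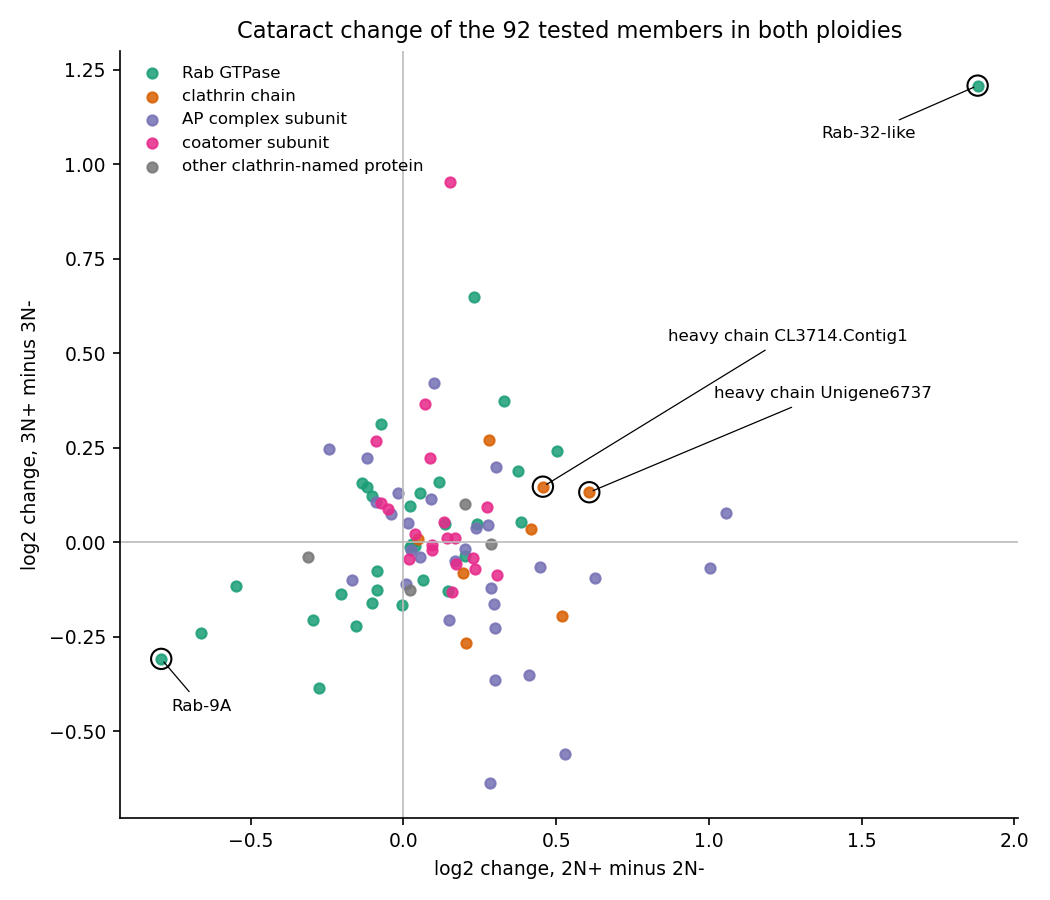
Log2 change with cataract in diploids (horizontal axis) against triploids (vertical axis) for the 92 tested members, coloured by class, with rings on the 4 members called in diploids. Rab-32-like lies apart at 1.88 and 1.21, and Rab-9A has the lowest diploid value at -0.79.

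The triploid cataract comparison as a whole called no member, and voom (limma's precision-weighted fit) on recovered reads called 0. By limma 7 members (7.6%) had an unadjusted p below 0.05. Over all unigenes 0.087% were called (0.0461% higher and 0.041% lower), and 8.92% had an unadjusted p below 0.05. Averaged over both ploidies, the same 4 members were called as in diploids, against 2.68% of all unigenes (0.814% higher and 1.87% lower). An unadjusted p below 0.05 was found for 14 members (15.2%), against 14.5% of unigenes. With Rab-32-like and the heavy chain contigs set aside, the remaining 84 tested members held 1 called member in diploids and in the average, Rab-9A, and their median diploid difference was 0.093.

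Ploidy was the third question. No member was called between triploid and diploid lenses without cataract (background 0.0717%), with cataract (0.0102%), or averaged over cataract (0.261%), where limma gave 10, 5 and 5 members with an unadjusted p below 0.05 and voom called 0 in each. The backgrounds were 0.0614%, 0.00512% and 0.205% higher, and 0.0102%, 0.00512% and 0.0563% lower. At an unadjusted p below 0.05 by limma they were 10%, 8.01% and 11.9%, beside 10.9%, 5.4% and 5.4% of the members. These comparisons use the same groups as the cataract comparisons. Rab-7a (CL1177.Contig2), a late endosomal Rab, had 7.90 to 12.0 RPKM in 2N- and 5.14 to 12.9 RPKM in 3N-, and its log2 difference of -0.33 ± 0.12 (SE) did not pass (adjusted p = 0.316). Rab-7a-like (Unigene5224) had -0.33 ± 0.11 averaged over cataract (adjusted p = 0.209). Coatomer subunit zeta-1 (Unigene7065) had -0.36 ± 0.13 between 3N- and 2N- (adjusted p = 0.317). In the average over cataract 17 of 19 coatomer contigs were negative with a median of -0.14, against -0.00469 over all unigenes. With connexin 43 as a covariate that was 12 of 19 and -0.028. Some of these contigs share a best hit, so they are not all independent members. With cataract, Rab-9A was higher in 3N+ than in 2N+ by 0.46 ± 0.16 (adjusted p = 0.431), and it was called, at 0.70 (adjusted p = 0.0336), without the erythrocyte-rich libraries.

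No member was called in the interaction of cataract and ploidy, and voom called 0. Of all unigenes 0.00512% were called, all lower (0% higher). By limma 8 members (8.7%) had an unadjusted p below 0.05, against 6.16% of unigenes. All 7 heavy chain contigs had a negative interaction, from -0.71 (Unigene1012) to -0.011 (CL1046.Contig2), with a median of -0.38.

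Members were also read against connexin 43 within the groups, as a measure of how much epithelium RNA a library held. The slope is the log2 change of a member per log2 unit of connexin 43. Of 92 members, 26 rose and 9 fell with connexin 43, 38.0% in all, beside a background of 38.1% of unigenes (21.3% higher and 16.8% lower). An unadjusted p below 0.05 was found for 44 members (47.8%), against 46.4% of unigenes. Among coatomer contigs 15 of 19 rose and none fell, and all 19 slopes were positive with a median of 0.095, beside 0.000275 over all unigenes. Some of these 19 share a best hit, so they are not all independent members. Among Rabs 6 rose and 6 fell, among AP contigs 4 rose and 1 fell, of the clathrin chains 1 heavy chain contig (CL542.Contig1, slope 0.097) rose, and both PICALM contigs that were called fell.

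Coatomer beta (Unigene6809) had a slope of 0.13 ± 0.015 (SE, limma adjusted p = 2.39e-07), and zeta-1 (CL2147.Contig1) one of 0.21 ± 0.034 (adjusted p = 1.89e-05). Delta (Unigene13678), alpha (Unigene8157) and gamma-2 (CL3529.Contig1) had slopes of 0.15, 0.089 and 0.081. The steepest member was a contig of Rab-10 (CL3892.Contig1, 395 bases), at 0.46 ± 0.0545 (adjusted p = 1.14e-07), with levels of 0.23 to 4.11 RPKM in 2N-, 0.43 to 6.39 in 2N+, 0.23 to 4.48 in 3N- and 0 to 8.48 in 3N+. Other contigs named Rab-10 had slopes of 0.033 for CL1428.Contig1 and 0.010 for CL1428.Contig2. Rab-35 (Unigene16851, endosomal recycling) and Rab-14 (CL1360.Contig2, Golgi to endosome transport) had slopes of 0.22 and 0.13, and Rab-2A one of 0.084.

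The steepest falls were Rab-32-like at -0.13 ± 0.041 (limma adjusted p = 0.0115), AP-2 sigma (CL2301.Contig2) at -0.13 ± 0.023 (adjusted p = 8.61e-05) and Rab-39B-like at -0.10 ± 0.025 (adjusted p = 0.00227). Rab-24 and Rab-9A had slopes of -0.076 and -0.075. The called slopes of Rab-24 (limma adjusted p = 0.0393) and Rab-1A (-0.040, adjusted p = 0.0404) each held in 18 of 26 fits without 1 library. Rab-24 lost its call without 2N- replicate 2, 3, 4 or 5, 2N+ replicate 6, 3N- replicate 3 or 6, or 3N+ replicate 3. Rab-1A lost its call without 2N- replicate 3, 4 or 6, 2N+ replicate 2, 3N- replicate 1, or 3N+ replicate 3, 4 or 5. The falls depended on the scaling. Without scaling, 65 members rose and none fell, beside 50.1% of unigenes higher and 1.54% lower, and the median slope over unigenes was 0.067. Of the 9 that had fallen, 7 kept a negative slope without a call, and Rab-1A and Rab-1B turned positive at 0.036 and 0.035. Few slopes passed within narrower ranges of connexin 43. Within the 14 libraries at 20 RPKM or more, 1 member rose (coatomer beta, Unigene6810, 0.41) and 2 fell (Rab-39B-like, -0.57, and AP-1 sigma-3, Unigene5743, -0.67), and the Rab-10 slope was -0.12. Within the 12 below 20 RPKM none was called. The shares of all unigenes called within these ranges are not given here, so these counts are not read as a result about the members.

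**Figure D5:**
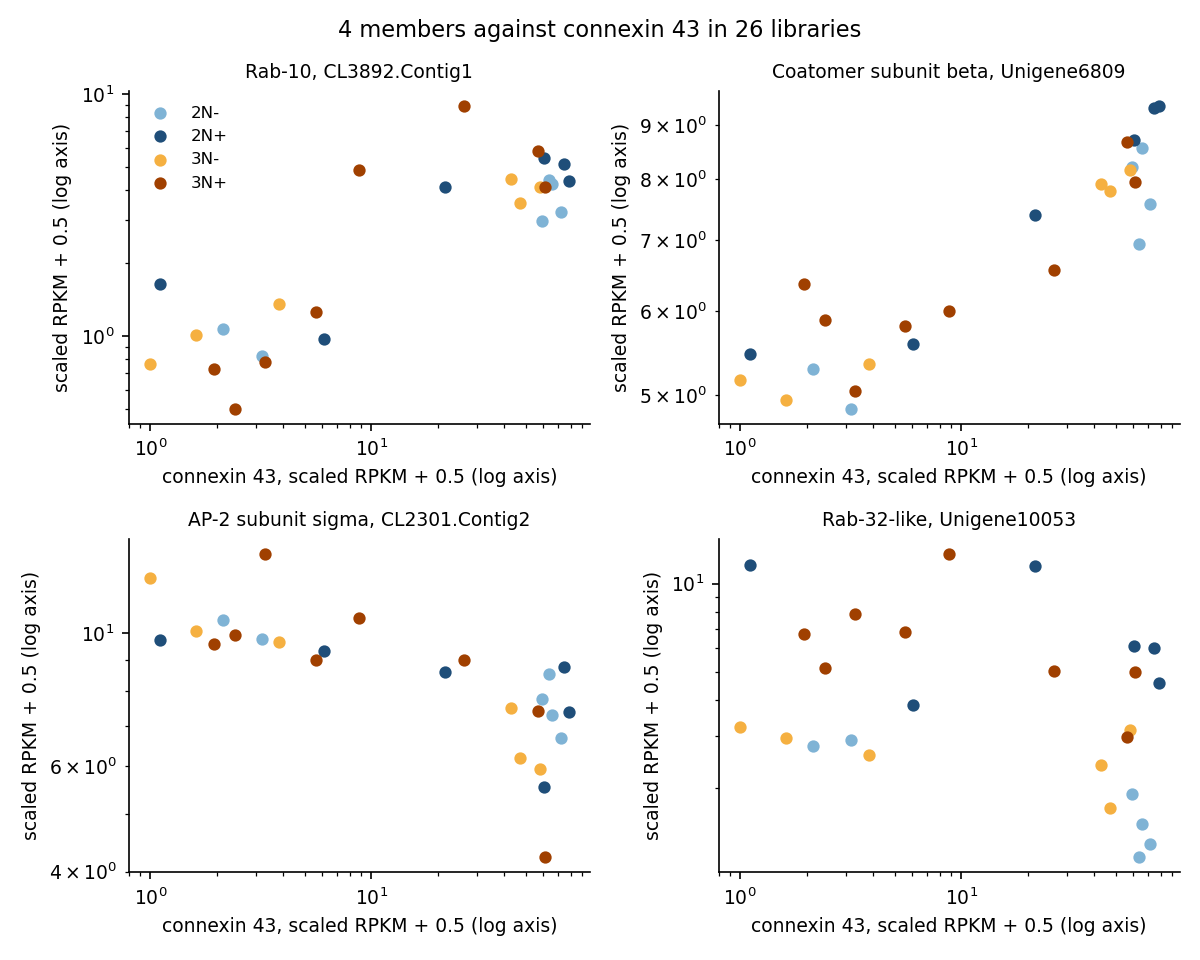
Scaled RPKM plus 0.5 of 4 members against that of connexin 43 in 26 libraries (both log axes), coloured by group. Coatomer beta (Unigene6809, slope 0.13) rises with connexin 43 and AP-2 sigma (CL2301.Contig2, slope -0.13) falls.

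Other genes of the same pathways were counted from lists of protein names that left out the members. The background of all unigenes called is 1.39% in diploids, 0.087% in triploids and 2.68% in the average. Of 33 tested clathrin partners, none rose and 1 (3.03%) fell in diploids, arrestin domain-containing protein 3 (Unigene4686), an adaptor for receptor ubiquitination, at -1.05 ± 0.22 (SE, limma adjusted p = 0.0123). In the average over ploidies it fell again (-0.87, adjusted p = 0.00119), as did dynamin-binding protein (Unigene1082, -0.79, adjusted p = 0.0201). The median of the list was 0.10 in diploids and -0.17 in triploids, beside 0.02 and -0.01 over all unigenes. Of 7 tested unigenes listed by name for Rab-32 partners and lysosome-related organelles, none rose and 1 fell in diploids. This was dysbindin domain-containing protein 1 (CL3679.Contig2), at -0.70 (limma adjusted p = 0.0444), and at -0.52 in the average (adjusted p = 0.0181). It was listed for the dysbindin domain in its name, and a link to Rab-32 was not tested.

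Of 37 Rab regulators, 1 (2.7%, close to the background) fell in the average, DENN domain-containing protein 2A-like (Unigene4056, -0.51, limma adjusted p = 0.0401), whose relatives load Rabs with GTP. Of 40 COPII and Arf proteins, 1 rose and 1 fell in the average. ADP-ribosylation factor 1 like (CL2165.Contig2), related to the GTPase that recruits coatomer and AP-1, rose by 0.39 ± 0.08 (adjusted p = 0.00522), and ADP-ribosylation factor-like 5A (Unigene4365) fell by 0.54 on the log2 scale (adjusted p = 0.0217). Of 24 retromer proteins and sorting nexins, 1 fell in the average, sorting nexin-4-like (CL1973.Contig1, -0.57, adjusted p = 0.0201). None of 43 Rab effectors and tethers and none of 28 SNARE and fusion proteins was called in diploids, triploids or the average. By limma, 5, 1 and 5 of the former (11.6%, 2.33% and 11.6%) had an unadjusted p below 0.05 there. So had 3, 1 and 4 of the latter (10.7%, 3.57% and 14.3%), beside 12.5%, 8.92% and 14.5% of all unigenes. In triploids no listed gene was called. An unadjusted p below 0.05 by limma was found there for 9 of 33 clathrin partners (27.3%), beside 8.92% of all unigenes. It was found for 5 of 24 retromer proteins and sorting nexins (20.8%) and 6 of 40 COPII and Arf proteins (15%). It was also found for 1 of 7 on the Rab-32 list (14.3%) and 3 of 37 Rab regulators (8.11%). In the average the shares were 37.5% for retromer proteins and sorting nexins, 30.3% for clathrin partners and 28.6% for the Rab-32 list. They were 24.3% for Rab regulators and 10% for COPII and Arf proteins, beside 14.5% of all unigenes. In the same order, the diploid shares were 20.8%, 12.1%, 28.6%, 13.5% and 17.5%, beside 12.5% of all unigenes.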

How the data were processed

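Lens RNA was sequenced from 26 fish, 1 poly(A) selected library per fish. The authors deposited 1 table of RPKM values for 26681 unigenes with their best protein hits. Assembler and aligner: not given in the sources used here. Members were found by protein name. Best hits came from many species (Salmo salar for 47 of 117 members), so names mark likeness, and contigs of near-identical copies may share reads. A dash was read as 0. Whole reads were recovered from the RPKM steps for 100% of unigenes within 0.01 reads (median 14 reads per unigene and library).

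Values were scaled by TMM factors (trims of 0.3 and 0.05; group means 0.944, 1.16, 0.961 and 0.990 in 2N-, 2N+, 3N- and 3N+) and tested as log2(RPKM + 0.5) with limma (trend, robust), 1 model with 4 group means, two-sided, Benjamini-Hochberg at 0.05 over 19532 unigenes with at least 10 reads, at the median depth, in 6 libraries and 15 in all. Log2 changes are on this scale; printed levels are RPKM as deposited. A further fit added log2 connexin 43. R 4.3.3, limma 3.58.1 and Python 3.11.15 were used. Each fish gave 1 library, so p-values measure the spread between fish.

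Members and lists were chosen with earlier results of these data known, and list wording was corrected after reading the names it matched. Named were Rab-32-like, every heavy chain contig, every member called in a group contrast, and called genes of the pathway lists. Others came from the 5 most abundant per class, the 5 smallest p per contrast, and the 3 highest and 3 lowest called slopes per class. Not every contig of these last sets is named in the text. Further members were named after their values were seen. Alternatives were no scaling, other pseudocounts, no read filter, voom on recovered reads, covariates, the replicate block and each library left out, and, chosen after seeing the data, leaving out libraries rich in retina, erythrocyte or keratin markers. Methods were tested on simulated data.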

Additional observations from a re-analysis of the deposited data

Results flagged for a closer look

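The levels of 14 members in the 4 groups were searched for a lens far from the rest of its group, by the gap to the nearest lens as a share of the group's range. In 56 such sets chance gives about 1 in 20, and 1 was found. Rab-32-like stood at 11.48 RPKM in 3N+ replicate 1, where the other 7 lenses of 3N+ lay between 2.78 and 6.31 RPKM. This library had 479 RPKM of keratins and 691 RPKM of erythrocyte markers, both above the medians of its group. Without it the triploid difference of Rab-32-like had the same direction and did not pass.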

How the results depend on the processing

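In diploids the 4 calls became 8 without scaling (6.73% of all unigenes were then called), 6 with connexin 43 as a covariate, 1 with body weight as a covariate, 1 without the retina-rich libraries, 2 without the keratin-rich libraries and 1 to 4 with 1 library left out. In triploids, where none was called, 2 were called without scaling (0.246% of all unigenes), 2 with the first principal component or connexin 43 as a covariate, and 0 to 2 with 1 library left out. Averaged over ploidies, the 4 calls became 6 without scaling (7.33% of all unigenes), 7 with either of those covariates, 3 without the erythrocyte-rich libraries, 2 with body weight, 2 without the retina-rich and 2 without the keratin-rich libraries, and 3 to 5 with 1 library left out. With the replicate number as a block there were 3 calls in diploids, 2 in the average and 32 slopes. Same-numbered libraries had correlations of -0.50 to 0.52, over 0.1 in 18 of 36 pairs. They were not compared with differently numbered pairs, so this cannot tell whether the numbers pair fish. The main fit did not pair fish by number. Between the ploidies with cataract 1 was called without the erythrocyte-rich libraries. The 35 called slopes became 65 without scaling (51.6% of all unigenes), 3 within libraries of 20 RPKM or more of connexin 43, 0 below it, and 32 to 37 with 1 library left out. Where no share of all unigenes stands beside a count, it is not given here. Those counts are not read as a result about the members.

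Some signs turned. Within libraries below 20 RPKM of connexin 43 the slopes were 0.016 for Rab-39B-like, 0.14 for Rab-9A, 0.037 for Rab-24, -0.012 for Rab-14, -0.024 for coatomer alpha (Unigene8157), -0.10 for coatomer beta (Unigene6312) and -0.031 for AP-1 sigma-2-like. At or above it they were 0.22 for PICALM-like (Unigene8518) and -0.12 for Rab-10 (CL3892.Contig1), and without scaling 0.036 for Rab-1A. Heavy chain CL542.Contig1 in triploids was 0.088 without the retina-rich libraries and -0.16 to 0.080 with 1 library left out. CL1046.Contig1 in triploids was -0.019 with the replicate block and -0.015 to 0.12 with 1 library left out. Unigene6738 was -0.082 in diploids without the retina-rich libraries. In the average it was 0.13 without scaling, 0.18 with body weight, 0.063 without the erythrocyte-rich libraries and -0.089 to 0.063 with 1 library left out. The cause was not tested. The median depth was 22.5 reads per member and library, and its share in the errors was not tested.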
